A study of Mus musculus with 4 samples.

Results

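OTX2 binding was described at 9 genes that receive and transmit bone morphogenetic protein (BMP) signals: the receptor genes Bmpr1a and Bmpr2, the pseudoreceptor gene Bambi, the SMAD genes Smad1, Smad5 and Smad6, and the target genes Id1, Id2 and Id3. The genes were chosen by name, with earlier results of these data known, and the regions were chosen by position. A region belonged to the gene whose span held its midpoint (the shortest gene where several did), or else to the protein-coding gene with the nearest end, up to 100 kb away. By this rule 43 of 39615 regions fell to the 9 genes, out of 34616 that fell to any of 21887 protein-coding genes. The outermost of the 43 lay 77.2 kb from Bambi and 76.1 kb from Smad1, and the first ones beyond the limit lay 110 kb from Smad1 and 150 kb from Bambi.

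The labelled libraries are from CUT&RUN, in which an antibody directs a nuclease to a chromatin protein and the released DNA is sequenced. The protein was HA-tagged OTX2, a homeodomain transcription factor, in mouse lines of BL6/129 hybrid genotype labelled OTX2-dTAG-EGFP; a dTAG is a protein tag through which a small molecule can trigger degradation. Epiblast stem cells (EpiSCs), kept in Activin A at 20 ng/ml, FGF2 at 12.5 ng/ml and NVP at 175 nM, were taken for 16 h through 40 ng/ml Activin A with 3 uM CHIR to a primitive streak (PS) state, and for another 24 h through 100 ng/ml Activin A with 100 nM LDN to definitive endoderm (DE). CHIR activates WNT signalling and LDN inhibits BMP type I receptors, so the DE cells, unlike the PS cells, were grown with a BMP receptor inhibitor. The libraries described in the labels are 4 PS libraries, 3 with anti-HA from the lines 7H, 7H1 and 7H2 and 1 with IgG from 7H2. Libraries of EpiSCs and of DE cells were not analysed here. The labels used here do not say which libraries or assay gave the EPI and DE calls of the region lists. All lines carry the tagged OTX2. The values are 4 lists of regions, named for binding in PS only (1634 regions), in PS and DE (6157), in DE only (31445), or in EPI and PS (379; EPI is the lists' own abbreviation). They give positions without heights and without values per library, so depth is unknown and no spread between replicates can be shown. Each list is named as holding regions only in its stages. Regions of other stage combinations, such as EPI, PS and DE together, are therefore in none of the lists. A gene without a listed region may still have been bound. No test was run: the counts below are descriptions, read against the same counts over all genes, and list lengths may also follow depth and peak calling.

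In the BMP pathway a secreted ligand brings together type I receptors such as BMPR1A and type II receptors such as BMPR2, both serine/threonine kinases. The type II receptor activates the type I receptor, which phosphorylates SMAD1 and SMAD5. These join SMAD4, enter the nucleus and switch on genes such as Id1, Id2 and Id3, whose products block basic helix-loop-helix transcription factors. SMAD6 inhibits the pathway and BAMBI, a membrane protein without a kinase domain, dampens signalling at the receptors. At gastrulation BMP signals favour posterior and mesodermal fates.

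DE only regions lay across annotated start sites of Smad5, Smad6 and Id2. RefSeq promoter windows (GRCm38.p6, 250 bases before to 50 after a start site) were matched for 7 of the 9 genes, in 9 windows, all but Id1 and Bambi. A DE only region overlapped the windows of 3 of these 7 genes, where 15.9% of 17492 protein-coding genes with a window had such an overlap. No PS and DE region overlapped a window of the 7 genes, where 2.2% of the 17492 genes had one. The stretches before Id2 and Smad6 are printed because they hold part of a bound region, with the bound bases in capitals. Each is written 5′ to 3′ along its gene, which lies on the minus strand. The Id2 stretch is chr12:25096093-25096342, of which 205 of 250 bases lie in the region. The Smad6 stretch is chr9:64022086-64022309, of which 38 of 224 bases lie in the region.
Id2: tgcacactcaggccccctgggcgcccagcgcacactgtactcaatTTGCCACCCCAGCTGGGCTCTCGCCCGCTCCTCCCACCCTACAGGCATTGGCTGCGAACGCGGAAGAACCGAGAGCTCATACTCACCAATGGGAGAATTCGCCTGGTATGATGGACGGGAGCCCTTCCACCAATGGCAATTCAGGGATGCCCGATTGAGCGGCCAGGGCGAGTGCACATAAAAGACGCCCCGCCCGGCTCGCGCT
Smad6: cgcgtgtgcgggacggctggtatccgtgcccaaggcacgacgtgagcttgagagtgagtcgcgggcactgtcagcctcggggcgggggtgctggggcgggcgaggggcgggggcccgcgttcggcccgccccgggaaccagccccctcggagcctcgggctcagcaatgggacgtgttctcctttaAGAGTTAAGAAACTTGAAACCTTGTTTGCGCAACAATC

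The bound bases before Id2 and Smad6 held no TAATCC, a core sequence that OTX2 is known to recognise. None of the 9 windows held it on either strand (reverse complement GGATTA), beside 7.06% of 32851 promoter windows of all genes. At that share, none among 9 windows is near the background and is no result about these genes. The 39 regions outside these windows were not searched, since no genome sequence was used. Nor were the parts of the Smad5 regions that run past the edges of their window. The Smad6 region held AACAAT, the reverse complement of the SOX-type motif ATTGTT, which was found in 10.7% of all windows. The same region held the SMAD palindrome GTCTAGAC across the annotated start site, a motif searched after the promoter sequences had been seen and present in 0.213% of all windows. At Smad5 the region before the third annotated start site held AGATAA, which GATA factors are known to bind, found in 11.2% of all windows. These 2 sites are printed in 30 bases each with the motif in capitals, from chr9:64022045-64022074 on the minus strand and from chr13:56703418-56703447 on the plus strand.
Smad6 start site: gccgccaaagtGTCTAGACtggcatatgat
Smad5 region: tctgggAGATAAggatccgcgcttatcggt

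GGCGCC, a motif known from BMP-SMAD response elements, was the most frequent of the 7 motifs of the fixed list in these windows. It lay in 5 of the 9 windows, belonging to Bmpr1a, Bmpr2, Id2 and Smad5 (the same site counted in both overlapping Smad5 windows), against 11.9% of all windows. None of these sites lay inside a bound region. The 9 windows held 59.3% to 79.3% G and C bases, against a median of 52.7% over all windows. The part of base composition in the motif counts, that of TAATCC included, was not tested. TCACAC was found, as GTGTGA, in windows of Smad1 and Smad5 (14.5% of all windows). TGTTTA (13.4% of all windows) and CTTTGA (16.0%) were found in none of the 9, on either strand, which with 9 windows is also near the background. A match here is a run of letters and not a measured site.

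Every one of the 9 genes had a DE only region, and 3 had regions bound in both PS and DE. DE only regions numbered 32, with 1 to 10 per gene, where 50.1% of all protein-coding genes had at least 1. PS and DE regions numbered 10, at Smad1, Smad6 and Bambi, where 16.3% of all genes had at least 1. The PS only list gave 1 region, at Id3, where 5.6% of all genes had at least 1. The EPI and PS list gave none at any of the 9, where 1.45% of all genes had at least 1. DE only regions thus made up 74.4% of the 43 (95% Wilson interval 59.8 to 85.1) and PS and DE regions 23.3% (13.2 to 37.7), beside 79.4% and 15.6% of all assigned regions. Both overall shares lay inside these intervals, which cover counting error only and treat regions as independent.

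**Figure D1:**
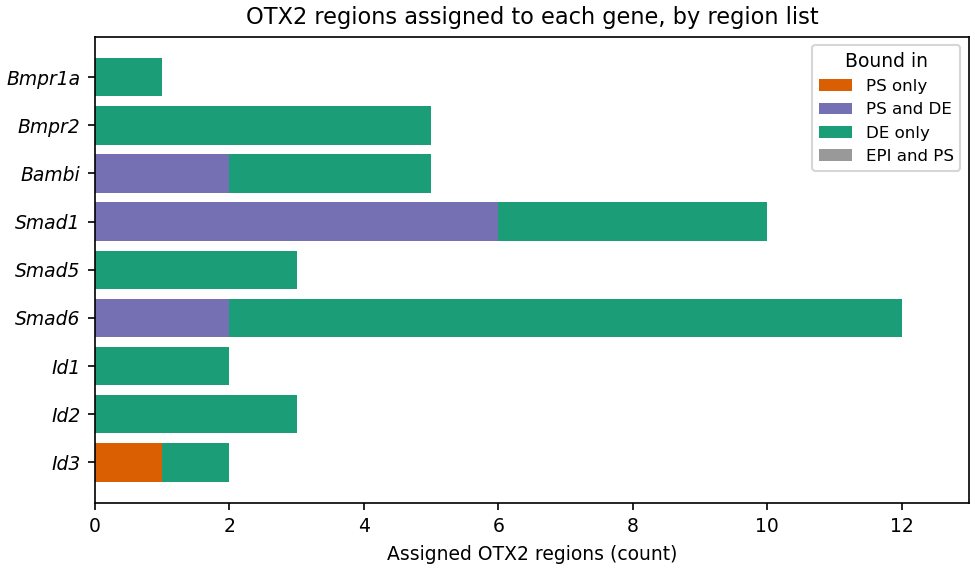
Bars give the number of OTX2 regions assigned to each of the 9 genes (x axis, count), coloured by the region list they come from. Smad6 with 12 and Smad1 with 10 regions hold 22 of the 43, and purple PS and DE segments appear at Smad1, Smad6 and Bambi.

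The counts also have to be read against the stretch of chromosome that each gene collects from. This territory was 214 kb for Smad6, 183 kb for Smad1, 158 kb for Bmpr2, 145 kb for Bambi, 118 kb for Id2, 99.8 kb for Bmpr1a, 75.0 kb for Smad5, 60.2 kb for Id3 and 23.2 kb for Id1. Over all 9 territories PS and DE regions lay at 0.930 per 100 kb, against 0.282 over all gene territories, and DE only regions at 2.98 against 1.44. At the mean rates the 9 territories would hold 3.03 PS and DE regions and 15.5 DE only regions, in place of 10 and 32. The pooled counts were uneven: Smad1 alone held 6 of the 10 PS and DE regions, and Smad6 held 10 of the 32 DE only regions. The DE only count was above its mean-rate value at 8 of the 9 genes, Bmpr1a being the exception, and the PS and DE count was above it at 3. The share of all genes above their own value was not counted, so neither number is a result about the 9 genes. For PS and DE, 1 region was enough in every one of the 9 territories, whose largest mean-rate value was 0.604 (Smad6).

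**Figure D2:**
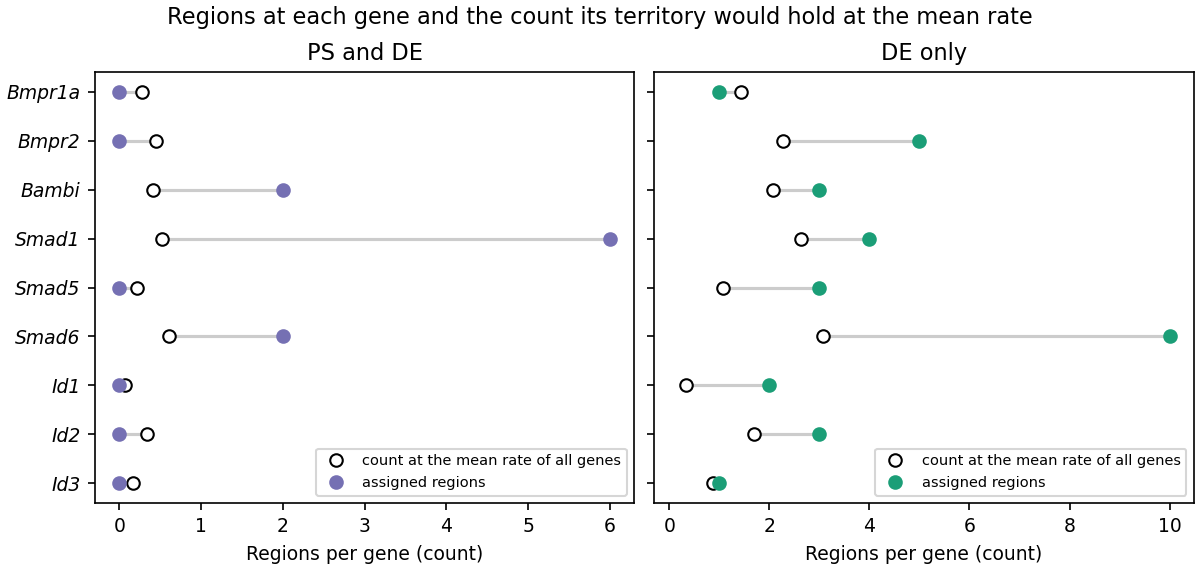
Filled points give the assigned regions per gene (x axis, count) for the PS and DE list and the DE only list, and open points give the number the gene's territory would hold at the mean rate of all gene territories. The widest gaps are at Smad1 for PS and DE (6 against 0.515) and at Smad6 for DE only (10 against 3.08).

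Both receptor genes held regions of the DE only list and of no other list, which does not show whether they held regions of unlisted stage combinations. Bmpr2, which encodes the BMP type II receptor (chr1:59764279-59878081, mm10), held 5 DE only regions and no region of another list, and 6.57% of all genes held at least as many of that list. A region at chr1:59744919-59745008 lay 19.3 kb before its start site, those at chr1:59803262-59803390 and chr1:59851225-59851310 lay inside the gene, and those at chr1:59883903-59883972 and chr1:59893270-59893333 lay 5.86 and 15.2 kb beyond its far end. The Bmpr2 regions were scattered and narrow. The closest pair was 9.30 kb apart and the widths ran from 64 to 129 bp, beside a median of 119 bp over the DE only list. The nearest PS and DE region to any of them was 116 kb off.

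Bmpr1a, which encodes a BMP type I receptor (chr14:34411061-34503336), held a single DE only region of 82 bp at chr14:34486238-34486319, inside the gene and 16.3 kb after its annotated start site. A count of at least 1 was met by the 50.1% of genes given above. Neighbouring genes took up the surroundings. Within 100 kb of Bmpr1a lay 8 DE only regions in all, 7 of them assigned to 9230112D13Rik, Fam25c, Glud1, Ldb3, Mmrn2 and Opn4, and the flanking genes start 6.77 and 8.28 kb away. The nearest PS and DE region to the Bmpr1a region was 234 kb off.

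Bambi held DE only regions inside the gene, and both DE only and PS and DE regions at a distance. At this gene (chr18:3507011-3516404), 2 DE only regions of 252 and 250 bp, at chr18:3507709-3507960 and chr18:3509071-3509320, lay inside the span, 1.11 kb apart. Such widths were reached by 7.75% and 7.96% of DE only regions. Beyond the upper end followed a DE only region at 22.6 kb (chr18:3538915-3539000) and PS and DE regions at 27.4 kb (chr18:3543750-3543828) and 77.2 kb (chr18:3593531-3593700). The next protein-coding gene on that side, Lyzl1, lies 649 kb away, so the territory there was limited only by the 100 kb rule, and with a limit of 1 Mb Bambi held 10 regions in place of 5. At least 2 PS and DE regions, the count of Bambi and of Smad6, were held by 4.91% of all genes.

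Smad1 held the most PS and DE regions of the 9 genes. SMAD1 is a transducer that the BMP type I receptors phosphorylate, and its gene (chr8:79338395-79399428, minus strand) held 6 such regions, a number reached by 50 of 21887 genes (0.228%). The territory would hold 0.515 at the mean rate. The regions lay in 3 places. Upstream of the start site were chr8:79454741-79455030 at 55.5 kb, chr8:79473525-79473807 at 74.2 kb and chr8:79475445-79475517 at 76.1 kb, the last pair 1.64 kb apart. Inside the gene lay a second pair, chr8:79382967-79383208 and chr8:79384985-79385174, 16.3 and 14.3 kb after the start site and 1.78 kb apart. The sixth, chr8:79322358-79322477, lay 16.0 kb beyond the far end.

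All 4 DE only regions of Smad1 lay inside the gene, at chr8:79350332-79350559, chr8:79361268-79361478, chr8:79378871-79379153 and chr8:79394165-79394255, which are 49.0, 38.1, 20.4 and 5.22 kb after the start site. None of the 10 regions lay within 5 kb of the start site. The third was 3.81 kb from the nearer region of the intragenic PS and DE pair. Several Smad1 regions were wide for their lists. Regions of 290, 283 and 242 bp were matched or exceeded by 4.65%, 5.07% and 9.37% of PS and DE regions, whose median is 123 bp. The ones of 120 and 73 bp were not wide, being matched or exceeded by 51.8% and 91.9%. The 3 upstream regions depended on the reach of the rule: with a limit of 50 kb Smad1 held 7 regions in place of 10.

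Across the 4 lists, the gene whose counts were most like those of Smad1 (0 PS only, 6 PS and DE, 4 DE only, 0 EPI and PS) was Sorl1, with the same 4 counts, followed by Lgalsl, with 5 PS and DE and 4 DE only regions. The measure was the Euclidean distance between the 4 counts, 0 for Sorl1 and 1 for Lgalsl, with ties broken by territory length.

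Smad5, whose product transduces the same signals as SMAD1, had no PS and DE region of its own. The gene (chr13:56703010-56742378, plus strand) held 3 DE only regions, a count reached by 15.8% of all genes. A pair 158 bp apart, chr13:56703390-56703490 and chr13:56703649-56703746, lay around the third annotated start site, 0.228 kb before it and across it (midpoint 0.029 kb after it). The third region, chr13:56731768-56732233, lay inside the gene 28.3 kb further on. At 466 bp it was the widest of all 43, a width reached by 0.286% of DE only regions. PS and DE regions were nearby but nearer to other genes. Within 100 kb of Smad5 lay 3 of them, assigned to Gm45623 and Trpc7, the closest 15.4 kb from the wide region.

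Smad6, which encodes the inhibitory SMAD of the pathway (chr9:63953076-64022085, minus strand), held the most assigned regions of the 9 genes, many of them narrow. Its 10 DE only regions were matched or exceeded in number by 1.17% of all genes, and its 2 PS and DE regions brought the total to 12. Its place as the first depended on the setting: of regions at least 150 bp wide Smad6 held 3 and Smad1 held 7, and with every region within 100 kb counted Smad6, Smad5 and Id1 had 14 each. The densest stretch was the 5′ end. There a DE only region lay across the annotated start site (chr9:64022051-64022123), another 0.95 kb upstream (chr9:64022921-64023098), the third 3.92 kb downstream (chr9:64018098-64018186), and a PS and DE region 4.81 kb downstream (chr9:64017171-64017332). That PS and DE region was 0.765 kb from the third one, the only case among the 32 DE only regions of a PS and DE neighbour within 1 kb. The other PS and DE region, chr9:64045335-64045453, lay 23.3 kb upstream.

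The remaining 7 DE only regions of Smad6 ran through the gene and past its far end. A pair 1.79 kb apart lay at chr9:64001833-64001967 and chr9:64003757-64003883, and a single region at chr9:63962104-63962228. Beyond the far end were chr9:63950512-63950581 at 2.53 kb, chr9:63928776-63929084 at 24.1 kb, and chr9:63918406-63918473 with chr9:63916158-63916258 at 34.6 and 36.9 kb. Widths spanned 68 to 309 bp. The neighbour on that side is Smad3, a SMAD of the activin branch, 195 kb away, so both gene ends have wide flanks that add to the territory of Smad6.

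**Figure D3:**
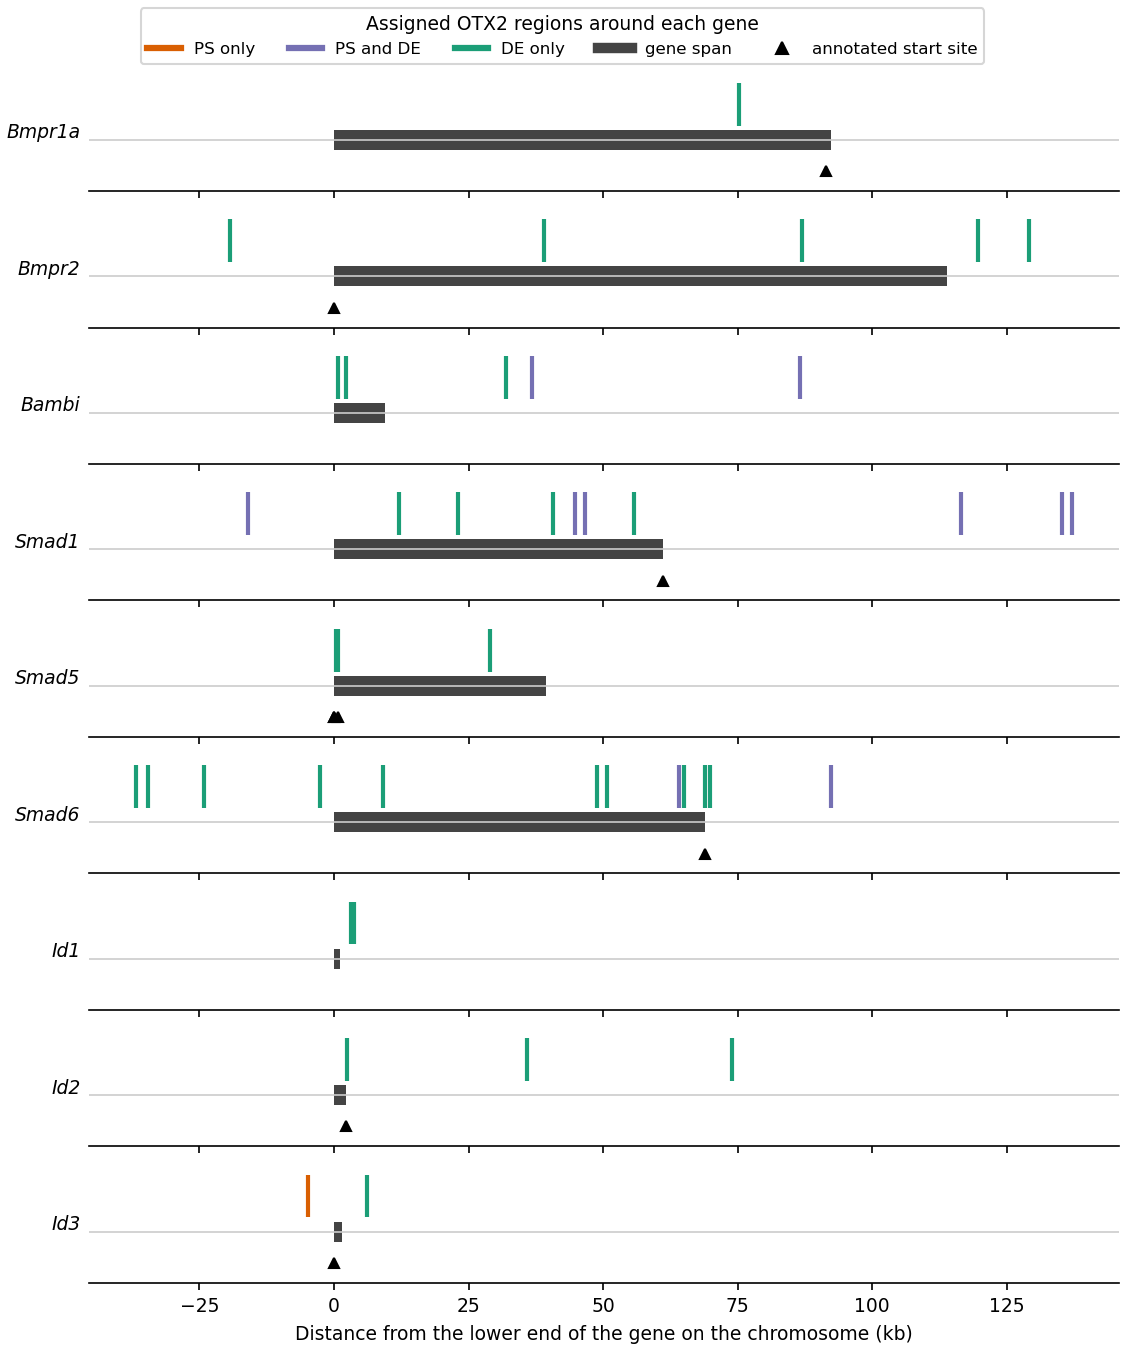
Each row shows a gene as a grey bar and its assigned regions as vertical lines coloured by list, with triangles at the annotated start sites of the 7 genes that have one in the promoter table; the x axis is the distance in kb from the lower end of the gene on its chromosome. Regions lie at start sites in Smad5, Smad6 and Id2, and PS and DE regions of Smad1 lie inside the gene and on both sides of it.

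The 3 target genes are short, and none of their regions lay with its midpoint inside the gene. Id2 (chr12:25093799-25096092, minus strand) held 3 DE only regions, all on the upstream side. The first, chr12:25096087-25096297, has its midpoint 0.100 kb before the start site and is the one whose bases are printed above. The others, at 33.5 kb (chr12:25129565-25129705) and 71.7 kb (chr12:25167743-25167857), lay within the long noncoding RNA genes Gm17746 and Gm36287. The next protein-coding gene on that side, Rnf144a, is 1210 kb away, and with a limit of 1 Mb Id2 held 10 regions in place of 3.

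Id1 and Id3 had regions within 5 kb of the gene. Id1 (chr2:152736251-152737410) held a pair of DE only regions 301 bp apart, chr2:152739417-152739580 and chr2:152739882-152740089, 2.09 and 2.58 kb beyond its upper end. In a territory of 23.2 kb these 2 regions gave 8.62 per 100 kb, but with regions within 500 bp merged they became 1 region. Id3 (chr4:136143822-136145392, plus strand) held the single PS only region, chr4:136138993-136139091, 4.78 kb upstream and inside the long noncoding RNA gene Gm42329, and a DE only region at chr4:136149876-136150029, 4.56 kb beyond the far end. PS and DE regions were absent from all 3 target genes under the assignment rule. With 16.3% of all genes having one, none among 3 genes is near the background and is no result about target genes. At the mean rate the territories of Id1, Id2 and Id3 would hold 0.0654, 0.332 and 0.17 PS and DE regions.

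The absence of PS and DE regions from the target genes also rested on the rule of the nearest gene. When every region within 100 kb was counted, whichever gene was nearest, PS and DE regions were found near 7 of the 9 genes, all but Bmpr1a and Bmpr2, and 45.5% of all protein-coding genes had one in such a window. Smad1 had 7, Id1 had 4 (3 assigned to Bcl2l1 and 1 to H13), Smad5 had 3, Bambi and Smad6 had 2, and Id2 and Id3 had 1. The 20 PS and DE regions of the windows compare with 10 assigned. DE only regions numbered 70 in the windows, with all 9 genes having at least 1, as did 86.9% of all genes. Id1 showed the largest difference, with 14 regions in its window and 2 assigned, while at Bambi both counts were 5. Which gene a distal region acts on was not measured.

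**Figure D4:**
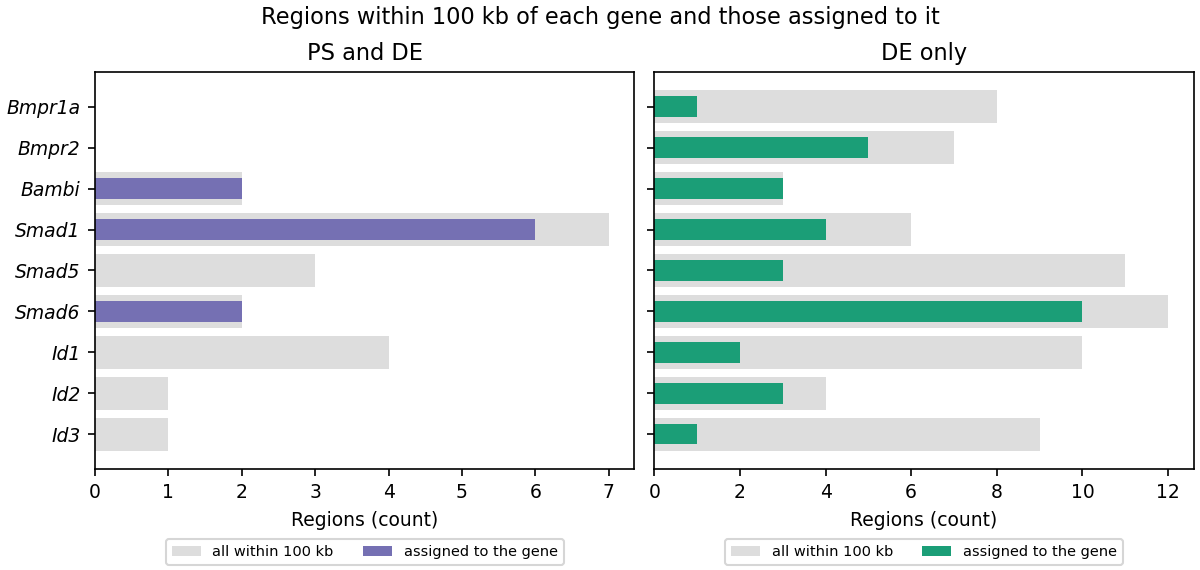
Grey bars give all regions within 100 kb of each gene and coloured bars those assigned to it (x axis, count), for the PS and DE list and the DE only list. Id1, Smad5, Id2 and Id3 have grey PS and DE bars without a coloured one, and Bmpr1a and Bmpr2 have neither.

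Distances between the lists were compared next. Of the 32 DE only regions, 18 (56.2%, 95% Wilson interval 39.3 to 71.8) lay within 50 kb of one, beside 35% of all assigned DE only regions. Within 10 kb it was 6 (18.8%, 8.89 to 35.3) beside 12.2%. All DE only regions of Smad1, Smad5, Bambi, Id1 and Id3 and 5 of the 10 at Smad6 were within 50 kb, and none at Bmpr1a, Bmpr2 or Id2 was. Smad1, Bambi and Smad6 are also the genes that hold the assigned PS and DE regions, so the closeness partly restates that count. Regions of the same gene share neighbours and are not independent, so the interval is too narrow.

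Relative to genes, the shares of all assigned regions lay inside the intervals of the 43. Inside the assigned gene lay 19 (44.2%, 95% Wilson interval 30.4 to 58.9), beside 53.9% of all assigned regions, and within 1 kb of a gene end 6 (14.0%, 6.56 to 27.3), beside 14.9%. Those 6 were all DE only: 2 each at Smad5 and Smad6 and 1 each at Bambi and Id2. Of the 10 PS and DE regions none lay within 1 kb of a gene end, beside 11.7% of all assigned PS and DE regions, and with 10 regions a share of up to 27.8% lies in the interval. Exons, introns and UTRs could not be told apart, because the annotation gives gene spans and start sites only.

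The rest of the pathway was described with 24 further genes, a list chosen with earlier results of these data known. Of these, 18 had a DE only region (75.0%, beside 50.1% of all genes), 9 a PS and DE region (37.5%, beside 16.3%), 4 a PS only region (16.7%, beside 5.6%) and none an EPI and PS region. The median was 3 DE only regions per gene, as for the 9 genes themselves, against 1 over all genes. These shares and medians were not adjusted for territory, which ran from 14.0 to 462 kb over the 24 genes. The part of territory length in them was not tested, so they are no result about the pathway. The PS and DE regions sat at the ligand genes Bmp2 and Bmp7 (4 each), at the antagonist genes Nog (3), Bmper (2) and Twsg1 (1), at the inhibitory SMAD gene Smad7 (1), and at the target genes Msx2 (3), Msx1 (2) and Id4 (1).

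Among the other receptor genes, Bmpr1b and Acvr1 held 5 DE only regions each, Acvr2b 1 and Acvr2a none, so that of 6 receptor genes in all, 5 had DE only regions and none a PS and DE region. With 16.3% of all genes having a PS and DE region, none among 6 genes is near the background and is no result about receptor genes. Among the SMAD genes, Smad7 held 1 PS and DE and 2 DE only regions, while Smad4, the partner of all receptor-activated SMADs, and Smad9, the other BMP-regulated SMAD, held none of any list. Id4 held 1 PS and DE region and 8 DE only regions in a territory of 205 kb. Id1, Id2 and Id3 have smaller territories (23.2, 118 and 60.2 kb). They had no PS and DE region under the assignment rule, but 4, 1 and 1 within 100 kb.

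**Figure D5:**
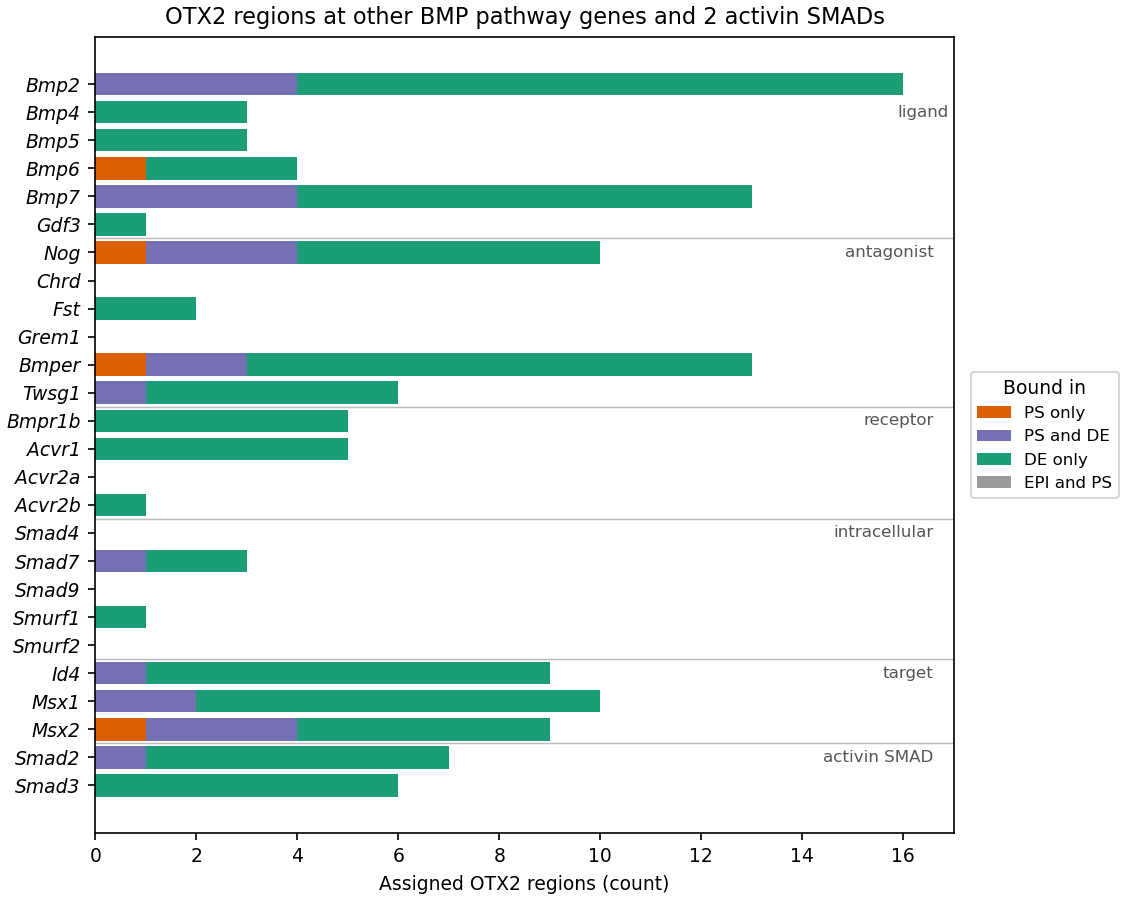
Bars give assigned OTX2 regions (x axis, count) by list for 24 other BMP pathway genes, grouped by role, and for the activin SMAD genes Smad2 and Smad3. The 4 receptor genes show DE only regions or none, and Bmp2 has the longest bar with 16 regions.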

How the data were processed

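OTX2 was mapped by CUT&RUN in PS cells (3 anti-HA libraries and 1 IgG library in the labels). The authors deposited 4 lists of region starts and ends (unit: base pairs), with no header, score or value per library. The submitters' processing notes name the build mm10 and the tools MACS2 2.2.6, Bowtie2 2.3.5.1, bedtools 2.30, Picard 2.26.10 and SAMtools 1.14. Not given in the sources used here are their order and settings, the peak threshold, whether IgG served as control, and how replicates were pooled. Such choices could change which regions are listed and in which list.

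Starts were converted to count from 1. Genes (21887 protein-coding) and promoter windows (32851) came from RefSeq tables of GRCm38.p6, the assembly of mm10, and all 9 symbols matched. Territories are the bases that the assignment rule gives to a gene. The rule was checked against a direct search. The 9 genes, the pathway list and the motifs were chosen with earlier results of these data known; 1 motif was added after the promoter sequences were seen. All 9 genes are named, as are the further pathway genes with a PS and DE region, neighbours that split a territory, and genes among the 3 most like Smad1, of which 1 is not reported here; other pathway genes are named to complete a group. Intervals are 95% Wilson intervals. The 7 alternatives for counts were limits of 50 kb and 1 Mb, all regions within 100 kb, gene ends also inside genes, any base in place of the midpoint, a minimum width of 150 bp, and merging within 500 bp; for gene ends a window of 2.5 kb. Python 3.11.15, pandas 2.3.3, numpy 2.4.6, scipy 1.17.1 and matplotlib 3.10.9 were used.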

Additional observations from a re-analysis of the deposited data

How the results depend on the processing

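Of 57 alternative values of the counts per list and of the gene-end share, 48 stayed within 1.5 times the reported count or inside its interval. Among the 48 are the EPI and PS counts, which were 0 in every setting. Taking gene ends also inside genes, or any base in place of the midpoint, changed none of the counts, so the 48 say little about stability. The values outside these bounds were the following. With a limit of 50 kb the PS and DE regions at the 9 genes fell from 10 to 6. With all regions within 100 kb counted there were 2 PS only, 20 PS and DE and 70 DE only regions, and 7 genes with a PS and DE region. With regions of at least 150 bp there were 0 PS only regions at 0 genes, 6 PS and DE regions and 12 DE only regions, and Bmpr1a and Bmpr2 kept none. Of 63 alternative values for single genes, 48 stayed within 1.5 times. Distances to genes and widths decide these changes by construction. The search of the regions themselves for TAATCC was not run, since no genome was used. No paired analysis was possible because the lists hold no value per library, and for the same reason no replicate could be left out. Depth per library is unknown.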

Other observations

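The activin branch gave a further comparison. Smad2 and Smad3, whose products carry activin and NODAL signals, each held 6 DE only regions, and Smad2 also held 1 PS and DE region, in territories of 217 and 210 kb. With Smad1 at 4 and Smad5 at 3 DE only regions in 183 and 75.0 kb, 4 of the 5 genes of receptor-activated SMADs had a DE only region, Smad9 having none, beside 50.1% of all genes. No test of a difference between the branches was possible.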
